A study of Saccharomyces cerevisiae with 21 samples.

Results

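A pair of budding yeast strains mutated on either side of a protein contact was compared across genes: spt6-KK, mutated in SPT6, and rpb1-FSP, mutated in the gene for the largest subunit of RNA polymerase II. The comparison used the 3 spt6-KK and the 3 rpb1-FSP libraries, chosen by their labels, which are 6 of the 21 RNA sequencing libraries of the series. The series holds 7 strains with 3 libraries each, namely a wild type (WT), 3 strains mutated in SPT6 (spt6-R, spt6-KK and spt6-R,KK) and 3 mutated in RPB1 (rpb1-TPY, rpb1-FSP and rpb1-TPY,FSP). All were grown in rich medium at 30 °C to logarithmic phase, and whole cells gave total RNA that was depleted of ribosomal RNA. Which residues KK and FSP stand for is not stated in the labels, nor is any other allele of these strains. The 3 libraries of a strain carry 1 strain name in the labels, which do not say whether they came from separate cultures. The p-values therefore measure the spread between these libraries, and a mutation cannot be told apart from any other difference between the isolates.

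Spt6 is a histone chaperone that travels with RNA polymerase II and restores nucleosomes behind it. Its tandem SH2 domain binds the phosphorylated linker of Rpb1, the stretch between the polymerase core and the repeated C-terminal domain, and this contact helps keep Spt6 on elongating polymerase. Mutations on either face of the contact address the same question from opposite partners, namely which transcripts differ when the contact is altered from the Spt6 or from the Rpb1 side.

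The deposited counts per full gene summed to between 5584434 and 7729008 in the 6 libraries, and 5618 genes passed the filter on low counts. The first spt6-KK library stood apart from its replicates. The chi-square per degree of freedom over genes was 22.6 and 19.5 between it and the other 2 spt6-KK libraries, against 5.36 between those 2, and it was between 6.49 and 11.2 within rpb1-FSP. Ribosomal RNA made up 1.93% to 2.17% of the spt6-KK counts and 1.32% to 1.48% of the rpb1-FSP counts, and its part in the results was not tested. The mating type was alike in both strains. STE2, the receptor of a cells, was at 755 to 953 CPM (counts scaled to the size of the library) in the 6 libraries, whereas STE3, the receptor of alpha cells, was at 1.81 to 4.03 CPM.

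Both mutated genes were measured first. SPT6 was at 152.6, 217.4 and 204.5 CPM in spt6-KK and at 239.7, 266.6 and 231.1 CPM in rpb1-FSP. The groups did not overlap, but the log2 difference of -0.36 ± 0.16 (SE) did not pass the test (edgeR adjusted p = 0.183). RPO21, which encodes Rpb1, was at 464.4, 423.4 and 460.8 CPM in spt6-KK and at 541.2, 488.3 and 571.6 CPM in rpb1-FSP, and again the groups did not overlap. Its log2 difference was -0.25 ± 0.12 (edgeR adjusted p = 0.244). With the 6 libraries alone and the replicate number as a block, a fit chosen after the data were seen, both passed, SPT6 at -0.39 (edgeR adjusted p = 0.00154) and RPO21 at -0.27 (edgeR adjusted p = 0.00587). Transcript levels do not check the alleles themselves.

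In the model of strain over all 21 libraries few genes separated the strains, and each by less than 2-fold, but a paired fit of the 6 libraries, given further on, called many more. At a false discovery rate of 0.05, 21 genes were called (0.374% of those tested), 10 higher (0.178%) and 11 lower (0.196%) in spt6-KK than in rpb1-FSP. Their log2 differences had sizes of 0.41 to 0.95, and the CPM of the groups did not overlap for any of the 21, while 31.3% of all genes tested showed no overlap. Much larger sets departed from WT, with 747 genes called in spt6-KK (13.3%, of which 6.35% higher and 6.94% lower) and 132 in rpb1-FSP (2.35%, of which 0.89% higher and 1.46% lower). No gene was called in opposite directions against WT. The adjusted p was 0.0366 for 20 of the 21 and 0.0404 for RPL39, so the calls sat close to the threshold. FUI1, HXK2, PMT1 and GLO2 came just outside it, each at an edgeR adjusted p of 0.0524, and 80 genes were under 0.06.

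**Figure D1:**
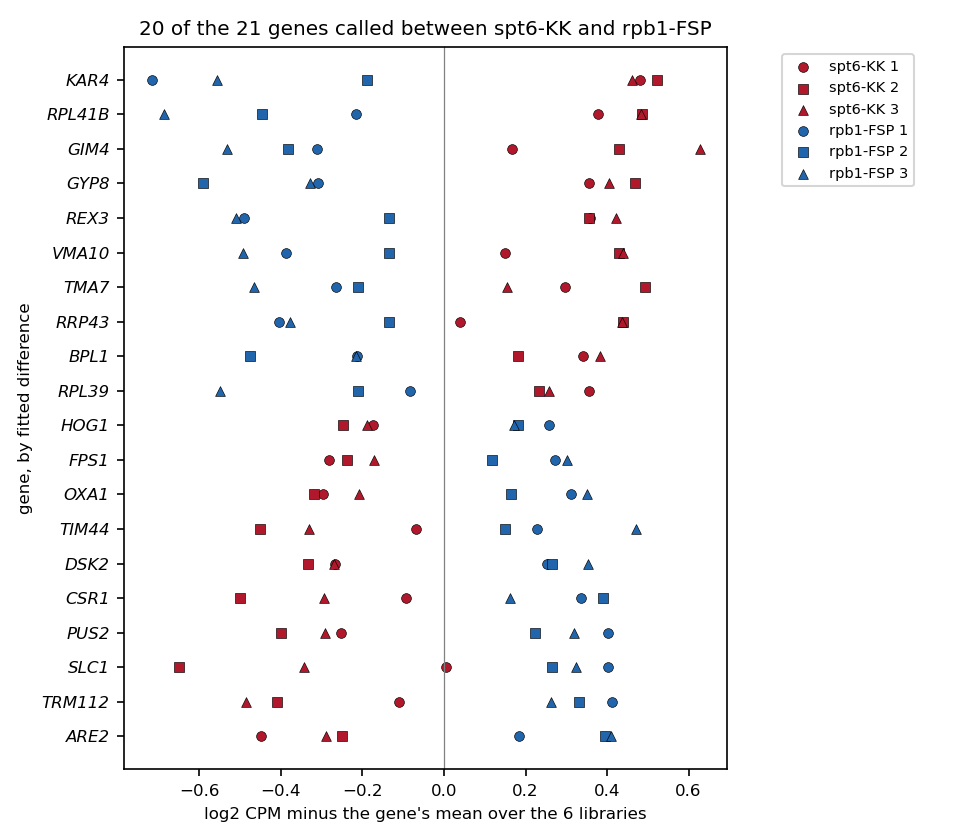
Log2 CPM of 20 of the 21 called genes in each of the 6 libraries, centred on the gene's mean over those libraries; red marks are spt6-KK and blue marks rpb1-FSP, with 1 shape per replicate number. No red mark overlaps a blue one within a gene, and the fitted differences run from 0.95 for KAR4 to -0.66 for ARE2.

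How many genes passed depended strongly on the libraries and the model. All 21 passed without the first spt6-KK library, with edgeR adjusted p from 0.00574 to 0.0298, and the count then rose to 304 higher and 141 lower. Without any other of the 6 libraries (spt6-KK 2, spt6-KK 3, or rpb1-FSP 1, 2 or 3) edgeR called no gene, with 399 to 725 genes higher and 336 to 506 lower at an unadjusted p under 0.05, although the 21 differences stayed between 0.38 and 1.12 in size. DESeq2 on all libraries called 99 genes higher and 118 lower, the 21 among them. With the replicate number as a block, 88 genes were higher (1.57%) and 56 lower (0.997%), together 2.56%, with the 21 among them. The pairing behind the block was inferred from these same counts, so calls with it are no independent support. With the block and only the 6 libraries compared, 861 of 5497 genes were higher (15.7%) and 849 lower (15.4%), together 31.1%, the 21 among them with edgeR adjusted p from 7.97e-06 to 0.00127. That fit called 9 of 23 pheromone-induced genes and 21 of 54 ribosome biogenesis genes higher, and 9 of 12 daughter-cell separation genes and 10 of 19 fatty acid and phospholipid synthesis genes lower. A correction for gene GC content, chosen after the data were seen, left 0 genes called in either direction without the block, where edgeR gave 566 higher and 582 lower at an unadjusted p under 0.05, and 50 higher and 55 lower with it. Under that correction the 21 genes kept their direction, with sizes of 0.35 to 0.89 and edgeR adjusted p of 0.0638 to 0.119, and 19 of them passed with the block added.

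The largest called rise was in KAR4, a transcription factor that acts with Ste12 on genes of the mating pathway. In budding yeast, pheromone activates a MAP kinase cascade that ends in Ste12, which binds pheromone response elements in promoters, and Kar4 then helps induce genes for cell and nuclear fusion. KAR4 (YCL055W) lies on the forward strand of chromosome III from 27929 to 28936 in the R64 assembly. The letters TGAAACA, the core of a pheromone response element, were searched on both strands in the 200 bases from 250 to 51 before each start codon. They were found in 255 of 5473 such windows (4.66%) and in 11 of the 24 windows of the pheromone-induced list (45.8%). The windows of KAR4, of PRM6, a pheromone-regulated membrane protein gene, and of FUS3, the MAP kinase gene of the pathway, are shown because each holds the letters while the genes differed in their values. They are read along the gene's strand from the RefSeq R64 genome, with the motif (TGAAACA or its reverse complement TGTTTCA) in capitals. They are chrIII:27679-27878 on the forward strand, chrXIII:181126-181325 on the reverse strand and chrII:192201-192400 on the forward strand.
KAR4: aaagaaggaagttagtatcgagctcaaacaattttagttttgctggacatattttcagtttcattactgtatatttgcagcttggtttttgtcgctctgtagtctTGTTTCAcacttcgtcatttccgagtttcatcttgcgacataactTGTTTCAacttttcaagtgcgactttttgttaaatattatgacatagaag
PRM6: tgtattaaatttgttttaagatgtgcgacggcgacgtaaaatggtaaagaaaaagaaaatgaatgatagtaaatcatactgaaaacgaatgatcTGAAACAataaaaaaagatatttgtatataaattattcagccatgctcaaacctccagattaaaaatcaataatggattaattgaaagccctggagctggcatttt
FUS3: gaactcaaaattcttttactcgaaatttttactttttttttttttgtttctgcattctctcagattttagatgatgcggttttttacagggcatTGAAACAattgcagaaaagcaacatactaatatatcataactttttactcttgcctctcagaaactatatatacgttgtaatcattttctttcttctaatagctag

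KAR4 was at 28.8, 29.6 and 28.4 CPM in spt6-KK and at 12.5, 18.1 and 14.01 CPM in rpb1-FSP. Every spt6-KK library was above every rpb1-FSP library, and the log2 difference was 0.95 ± 0.19. Against WT the log2 difference was 1.05 in spt6-KK (edgeR adjusted p = 0.00141) and 0.09 in rpb1-FSP (edgeR adjusted p = 0.876). PRM6, described after its values were seen, had 13, 7 and 16 counts in spt6-KK and 2, 0 and 0 in rpb1-FSP. Its edgeR adjusted p was 0.0561, and 0.0375 with the replicate block. FUS3, whose window holds 1 copy of the letters, was at 68.1, 64.1 and 67.4 CPM in spt6-KK and at 72.5, 74.4 and 68.6 CPM in rpb1-FSP, a log2 difference of -0.11 ± 0.10 (edgeR adjusted p = 0.535).

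Among 24 pheromone-induced genes tested, the median log2 difference was 0.44, against 0.05 over all genes. KAR4 was the only member called, 7 members were higher (29.2%, against 13.6% of all genes) and 0 lower (against 8.95%) at an unadjusted p under 0.05. The members named here were chosen after their values were seen. STE18, the gamma subunit of the pathway's G protein, was at 18.7, 24.0 and 21.6 CPM in spt6-KK and 15.5, 15.1 and 12.5 CPM in rpb1-FSP, which did not overlap (0.58 ± 0.18, edgeR adjusted p = 0.0916). GPA1, the alpha subunit, had 71.1, 76.9 and 73.5 against 58.5, 58.4 and 49.1 CPM, without overlap (0.42 ± 0.15, edgeR adjusted p = 0.125). FUS1, a gene for cell fusion, was at 20.1, 10.3 and 8.35 CPM in spt6-KK and 11.3, 7.39 and 8.57 CPM in rpb1-FSP, and the groups overlapped. PRM1, also a fusion gene, had 26.9, 14.8 and 9.51 against 13.6, 9.28 and 5.93 CPM, with overlap as well. For both the first library of each strain was the highest. The median over pheromone-induced genes was 0.48, 0.60 and 0.17 above the rpb1-FSP mean in the 3 spt6-KK libraries. Without the first spt6-KK library the list's median was 0.39, and 4 of 24 members were called higher, against 304 of 5641 genes. At an unadjusted p under 0.05, 5 were higher without it (20.8%, against 16.4% of all genes). Without the third rpb1-FSP library 4 members were higher at an unadjusted p under 0.05 (16.7%, against 8.83% of all genes). Against WT, 8 of 24 members were called higher in spt6-KK, against 6.35% of all genes, and 0 in rpb1-FSP, against 0.89%.

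Of the other genes called higher, several encode parts of the ribosome or act on RNA. RPL41B, for a very short protein of the large ribosomal subunit, was at 199.8, 215.4 and 215.2 CPM in spt6-KK and at 132.5, 112.8 and 95.6 CPM in rpb1-FSP, well apart (0.89 ± 0.19). Its copy RPL41A, named as its copy, differed by 0.43 ± 0.17 (edgeR adjusted p = 0.149), and since the genes are near-identical the split of reads between them is uncertain. RPL39, of the same subunit, was at 573.4, 525.9 and 534.9 CPM in spt6-KK and at 422.5, 386.6 and 305.8 CPM in rpb1-FSP (0.55 ± 0.12). TMA7, a protein found with ribosomes, had 67.1, 76.9 and 60.8 against 45.4, 47.2 and 39.6 CPM (0.63 ± 0.13). RPL39 and TMA7 were called lower than WT in rpb1-FSP and were not called against WT in spt6-KK. RPL39 stood at -0.60 in rpb1-FSP and at -0.05 in spt6-KK, and TMA7 at -0.51 and 0.12. RRP43, a subunit of the RNA exosome, was at 52.1, 68.9 and 68.7 against 38.3, 46.2 and 39.1 CPM (0.62 ± 0.13). REX3, an RNA exonuclease, was at 22.6, 22.5 and 23.6 against 12.5, 16.04 and 12.4 CPM (0.74 ± 0.15). In neither gene did the strains overlap.

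Ribosomal protein genes as a class were spread on both sides of 0. Over 137 genes for cytosolic ribosomal proteins the median log2 difference was -0.02. At an unadjusted p under 0.05, 22 members were higher (16.1%, against 13.6% of all genes) and 20 lower (14.6%, against 8.95%). The medians were 0.15, -0.15 and -0.08 in the 3 spt6-KK libraries, so the first differed in sign from the others. Without it the list's median was -0.12, with 3 of 137 members called higher and 15 lower, against 304 and 141 of 5641 genes. At an unadjusted p under 0.05, 14 were higher without it (10.2%, against 16.4% of all genes) and 33 lower (24.1%, against 10.7%). Without the second spt6-KK library 12 were lower (8.76%, against 5.96%). Without the third rpb1-FSP library 13 were higher (9.49%, against 8.83%). Against WT, ribosomal protein genes were lower in both strains. Of the 137, 73 were called lower in spt6-KK (median -0.41), against 6.94% of all genes. In rpb1-FSP 46 were called lower (median -0.41), against 1.46%. Among 54 ribosome biogenesis genes the median difference was 0.15 and edgeR called none (DESeq2 called 2 higher and 1 lower), and 14 were higher (25.9%) and 1 lower at an unadjusted p under 0.05. The exception was NOP1, named for that, the methyltransferase of box C/D small nucleolar particles (-0.44 ± 0.14, edgeR adjusted p = 0.088). The 3 spt6-KK libraries had medians of 0.02, 0.21 and 0.29 over this list. Without the first the list's median was 0.23, and 5 of 54 members were called higher, against 304 of 5641 genes. At an unadjusted p under 0.05, 24 were higher without that library (44.4%, against 16.4% of all genes). Without the second or the third spt6-KK library 5 were higher (9.26%, against 7.07% and 7.71%). Without the first rpb1-FSP library 6 were higher (11.1%, against 9.93%), and without the third 9 (16.7%, against 8.83%).

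The remaining 3 called rises, beside BPL1, had other roles. GIM4, a subunit of the prefoldin chaperone, was at 33.2, 39.8 and 45.6 CPM in spt6-KK and at 23.8, 22.6 and 20.4 CPM in rpb1-FSP (0.83 ± 0.17). GYP8, an activator of Ypt GTPases, was at 29.4, 31.8 and 30.4 against 18.5, 15.3 and 18.3 CPM (0.81 ± 0.16). VMA10, a subunit of the vacuolar proton pump, was at 148.4, 179.9 and 181.3 against 102.1, 121.8 and 94.9 CPM (0.68 ± 0.14). For each of them the lowest spt6-KK library was above the highest rpb1-FSP library. GYP8 stood at 0.81 against WT in spt6-KK and at 0.00 in rpb1-FSP, and VMA10 at 0.65 and -0.02. In all, 5 of the 10 higher genes (KAR4, GIM4, GYP8, VMA10 and RRP43) were also called higher than WT in spt6-KK.

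BPL1, the enzyme that attaches biotin to acetyl-CoA carboxylase and other proteins, was lower in each of the RPB1 mutants than in any SPT6 mutant. It was at 109.2, 97.8 and 112.5 CPM in spt6-KK and at 74.3, 62.0 and 74.2 CPM in rpb1-FSP (0.60 ± 0.13). It was at 123.8, 122.8 and 110.3 CPM in WT, so it was lower than WT in rpb1-FSP (-0.76, edgeR adjusted p = 0.00199) and not called in spt6-KK (-0.16, edgeR adjusted p = 0.416). BPL1 was also below WT in the other RPB1 mutants, at 93.4, 67.1 and 86.8 CPM in rpb1-TPY and 71.9, 88.6 and 86.5 CPM in rpb1-TPY,FSP. The other SPT6 mutants had 133.5, 123.5 and 134.8 CPM (spt6-R) and 153.5, 125.1 and 131.3 CPM (spt6-R,KK). None of the 9 libraries of RPB1 mutants reached the lowest library of the SPT6 mutants.

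BPL1 (YDL141W) lies on chromosome IV from 203039 to 205111 on the forward strand, and RPO21 (YDL140C) from 205360 to 210561 on the reverse strand, so the genes converge with 248 bases between their coding ends. On the other side of RPO21, 813 bases away, lies SCM3 (YDL139C), which encodes the chaperone of the centromeric histone. SCM3, described for its position, was at 5.68, 6.25 and 7.35 CPM in spt6-KK and at 3.27, 2.52 and 2.47 CPM in rpb1-FSP, and the groups did not overlap. Its log2 difference was 1.22 ± 0.29 (edgeR adjusted p = 0.0561, and 0.0375 with the replicate block). In WT SCM3 was at 1.955, 4.396 and 3.645 CPM. The rpb1-FSP values lay within that range, and the spt6-KK values lay above it. Unlike BPL1, SCM3 was not below WT in the other RPB1 mutants either, at 3.05 to 4.63 CPM in rpb1-TPY and 4.09 to 4.85 CPM in rpb1-TPY,FSP. How the RPB1 alleles were introduced is not given in the labels, and an effect of the mutation cannot be told apart from any other difference at the locus.

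**Figure D2:**
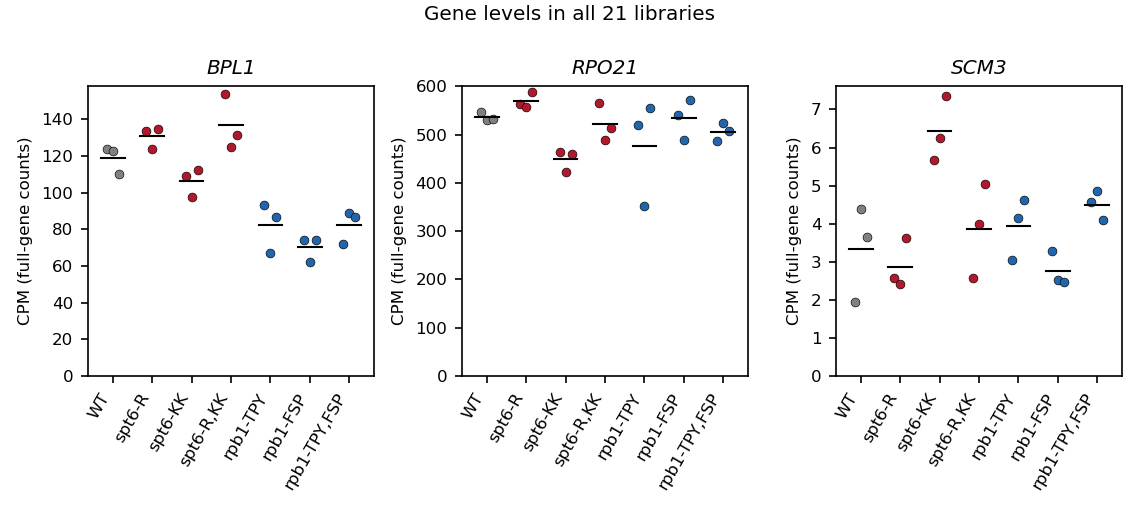
CPM of BPL1, RPO21 and SCM3 in all 21 libraries, 3 points a strain with the mean as a bar; grey is WT, red the SPT6 mutants and blue the RPB1 mutants. BPL1 is at 62.0 to 93.4 CPM in the RPB1 mutants and at 97.8 CPM or above elsewhere, whereas RPO21 and SCM3 show no such split.

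The genes called lower are described next. ARE2, which esterifies sterols for storage, was at 142.6, 163.6 and 159.4 CPM in spt6-KK and at 221.2, 256.2 and 259.0 CPM in rpb1-FSP (-0.66 ± 0.12). SLC1, an acyltransferase that makes phosphatidic acid, was at 86.6, 55.0 and 68.0 against 113.9, 103.7 and 108.0 CPM (-0.63 ± 0.13). CSR1, a phosphatidylinositol transfer protein, was at 52.6, 39.7 and 45.8 against 70.9, 73.6 and 62.8 CPM (-0.59 ± 0.12). Every rpb1-FSP library was above every spt6-KK library in these 3 genes.

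OXA1, which inserts proteins into the mitochondrial inner membrane, was at 55.2, 54.3 and 58.6 CPM in spt6-KK and at 84.1, 76.0 and 86.4 CPM in rpb1-FSP (-0.55 ± 0.11). TIM44, part of the motor that pulls proteins into mitochondria, was at 121.4, 93.2 and 101.2 against 149.2, 141.3 and 176.5 CPM (-0.56 ± 0.11). PUS2, a mitochondrial tRNA pseudouridine synthase, was at 17.3, 15.6 and 16.9 against 27.3, 24.1 and 25.7 CPM (-0.63 ± 0.13). The same gap, with no overlap, held for TRM112, the partner subunit of several methyltransferases, at 76.9, 62.5 and 59.2 against 110.3, 104.3 and 99.4 CPM (-0.66 ± 0.13). It also held for DSK2, a ubiquitin receptor that brings proteins to the proteasome, at 131.6, 125.8 and 131.5 against 188.8, 190.3 and 202.3 CPM (-0.58 ± 0.11).

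HOG1, the MAP kinase of the response to high osmolarity, had the smallest called difference (-0.41 ± 0.09), at 173.6, 165.3 and 172.1 against 234.4, 222.4 and 220.7 CPM. Its replicates were close to each other in both strains. FPS1, the glycerol channel of the plasma membrane, was at 80.1, 82.6 and 86.6 against 117.6, 105.7 and 120.2 CPM (-0.46 ± 0.10). Again no library of one strain reached the range of the other.

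All 11 lower genes were also called lower than WT in spt6-KK, and none was called higher than WT in rpb1-FSP. OXA1 was the farthest from WT, at -0.93 in spt6-KK (edgeR adjusted p = 1.5e-05) and -0.38 in rpb1-FSP (edgeR adjusted p = 0.0603). ARE2 stood at -0.66 in spt6-KK and 0.00 in rpb1-FSP, and HOG1 at -0.33 and 0.08. Both sets of values share the WT libraries. Some genes lay far from WT in both strains without being called between them, and of these ELO1 and FLO11 were picked after their values were seen. IMD2, an IMP dehydrogenase gene regulated by the choice of start site, was 3.27 above WT in spt6-KK and 2.90 in rpb1-FSP. It had 322.0, 406.7 and 389.3 CPM in spt6-KK and 260.2, 305.2 and 304.0 CPM in rpb1-FSP, a log2 difference of 0.36 ± 0.16 (edgeR adjusted p = 0.176). SER3, a serine synthesis gene silenced by transcription through its promoter, was 2.48 and 2.19 above WT (difference 0.29 ± 0.27, edgeR adjusted p = 0.536). URA8, a CTP synthase gene, was 0.99 and 0.94 above it (difference 0.05 ± 0.14, edgeR adjusted p = 0.87). ELO1, a fatty acid elongase, was 1.27 and 1.13 above it (difference 0.14 ± 0.16, edgeR adjusted p = 0.621).

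FLO11, a cell surface adhesin, was at 38.4, 43.7 and 38.9 CPM in spt6-KK and at 44.9, 87.9 and 104.2 CPM in rpb1-FSP, without overlap. Its log2 difference from WT was -3.05 in spt6-KK and -2.08 in rpb1-FSP, and its difference between the strains was -0.97 ± 0.29 (edgeR adjusted p = 0.0819).

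**Figure D3:**
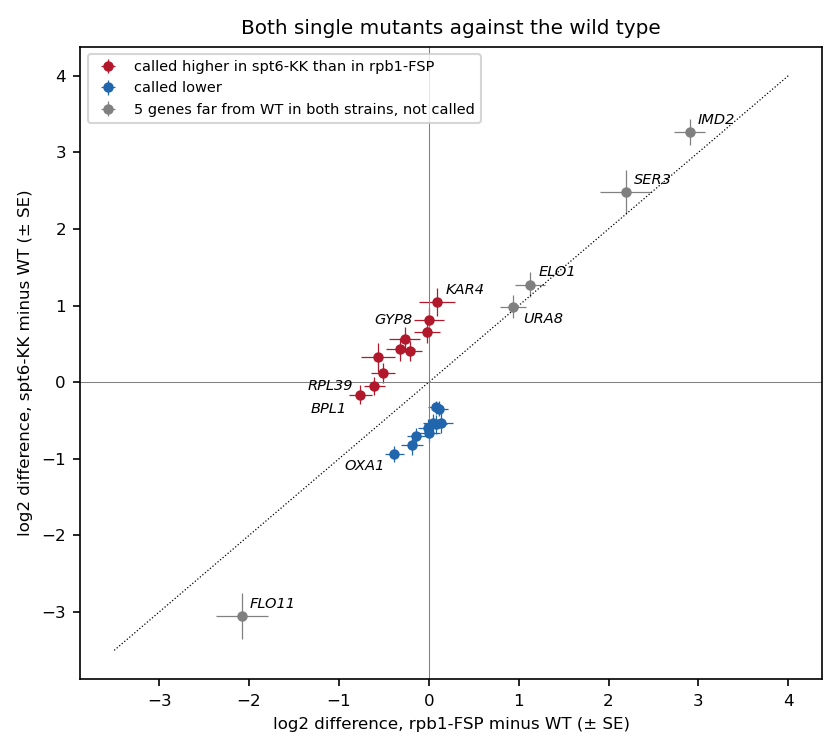
Log2 difference from WT in rpb1-FSP (horizontal) and spt6-KK (vertical), each with its SE, for the 10 genes called higher (red), 10 of the 11 called lower (blue) and 5 genes far from WT in both strains but not called between them (grey); the dotted line marks equal differences. The called genes lie off the line within about 1 log2 unit of WT, while IMD2, at 2.90 and 3.27, lies near it.

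Lists of the transcription machinery held no gene called by edgeR in the model over all 21 libraries. With the 6 libraries and the block, 15.7% of all genes were called higher and 15.4% lower. Of 37 elongation factors and histone chaperones that fit called 10 higher and 2 lower. It called 4 higher and 3 lower of 12 polymerase subunits, and 3 higher and 1 lower of 11 histone genes. Among 37 elongation factors and histone chaperones the median log2 difference was 0.17, and edgeR called none (DESeq2 called 1 higher, against 99 of 5823 genes). At an unadjusted p under 0.05, 8 were higher (21.6%, against 13.6% of all genes). The 1 lower member was SPT6 itself (2.7%, against 8.95%). SPN1, the partner protein of Spt6, was at 41.1, 71.4 and 59.5 CPM in spt6-KK and at 33.8, 37.4 and 37.6 CPM in rpb1-FSP, without overlap. Its log2 difference was 0.66 ± 0.19 (edgeR adjusted p = 0.0763, and 0.044 with the replicate block). SPT16, a subunit of the FACT histone chaperone, was at 257.9, 260.5 and 275.6 against 252.2, 257.8 and 268.0 CPM, and the ranges overlapped (0.03 ± 0.11, edgeR adjusted p = 0.9). Without the first spt6-KK library the list's median was 0.29, and 7 of 37 members were called higher, against 304 of 5641 genes. At an unadjusted p under 0.05, 15 were higher without that library (40.5%, against 16.4% of all genes). Without the second or the third spt6-KK library 3 were higher (8.11%, against 7.07% and 7.71%).

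Of 12 subunits of RNA polymerase II edgeR called none (DESeq2 called 1 higher), with 4 higher (33.3%, against 13.6% of all genes) and 2 lower (16.7%, against 8.95%) at an unadjusted p under 0.05. Without 1 of the 6 libraries at a time the lower members numbered 0 to 3, with 0 without the second spt6-KK library and 1 without the first or the third rpb1-FSP library. RPB5 was at 85.2, 111.2 and 108.3 CPM in spt6-KK and at 69.2, 69.2 and 65.9 CPM in rpb1-FSP (0.58 ± 0.14, edgeR adjusted p = 0.0564, and 0.0434 with the block). Of 11 histone genes edgeR called none, with 2 higher (18.2%) and 1 lower (9.09%) at an unadjusted p under 0.05, and DESeq2 called 1 in each direction. HTA2, a histone H2A gene, was at 227.4, 274.7 and 253.0 against 157.2, 181.5 and 157.3 CPM (0.61 ± 0.16, edgeR adjusted p = 0.0708, and 0.0369 with the block). The other H2A gene, HTA1, had 378.2, 349.7 and 377.2 against 390.9, 411.3 and 394.3 CPM (-0.11 ± 0.15, edgeR adjusted p = 0.682). These copies are near-identical in their coding sequence, so reads could be split between them.

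Loss of Spt6 function is known to expose promoters inside genes. For 7 genes with known internal promoters, the median log2 difference was 0.27. edgeR called 0, and DESeq2 called 1 higher, against 99 of 5823 genes. At an unadjusted p under 0.05, 2 were higher (28.6%, against 13.6% of all genes). The list's median over the rpb1-FSP mean was -0.10, 0.38 and 0.41 in the 3 spt6-KK libraries, so the first differed in sign from the others. Without that library the median difference was 0.45, and 4 members were higher at an unadjusted p under 0.05 (57.1%, against 16.4% of all genes). Without the second or the third the median difference was 0.07 or 0.17, with 1 member higher (14.3%, against 7.07% and 7.71%). AVO1, a subunit of TOR complex 2, was at 32.7, 35.7 and 44.9 CPM in spt6-KK and at 23.3, 26.7 and 28.0 CPM in rpb1-FSP (0.54 ± 0.15, edgeR adjusted p = 0.0756, and 0.0474 with the block). FLO8, the classic reporter of internal initiation, was at 27.3, 27.4 and 32.3 against 22.7, 33.0 and 29.7 CPM, with overlap (0.02 ± 0.15, edgeR adjusted p = 0.951). Counts over whole genes do not separate internal transcripts from full ones.

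Among 12 genes of daughter-cell separation, transcribed after division in daughter cells, the median log2 difference was -0.39. edgeR called 0, and DESeq2 called 1 lower, against 118 of 5823 genes. At an unadjusted p under 0.05, 5 were lower (41.7%, against 8.95% of all genes). Without the third rpb1-FSP library 3 were lower (25%, against 5.96%). The members named here were chosen after their values were seen. ASH1, a repressor of mating-type switching in daughters, was at 81.8, 57.2 and 66.4 CPM in spt6-KK and at 107.6, 96.7 and 98.7 CPM in rpb1-FSP. The strains did not overlap (-0.56 ± 0.17, edgeR adjusted p = 0.0819, and 0.0375 with the block). EGT2, a cell wall protein of cytokinesis, was at 339.8, 233.0 and 294.5 against 463.8, 412.0 and 489.2 CPM (-0.65 ± 0.23, edgeR adjusted p = 0.111). CTS1, the chitinase of the septum, was at 857.7, 741.1 and 697.0 against 931.0, 812.3 and 859.8 CPM, with overlap (-0.18 ± 0.20, edgeR adjusted p = 0.612). The list's median was -0.16, -0.39 and -0.40 in the 3 spt6-KK libraries.

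Lipid genes were described by 2 lists, and the members named beside ARE2 were chosen after their values were seen. Over 19 fatty acid and phospholipid synthesis genes the median was -0.22, with 0 called by edgeR or DESeq2. At an unadjusted p under 0.05, 5 were lower (26.3%, against 8.95% of all genes). Without the second spt6-KK or the first or the third rpb1-FSP library, 2 were lower (10.5%, against 5.96% to 6.45% of all genes). Without the third spt6-KK library 3 were lower (15.8%, against 6.97%). CHO2, a methyltransferase of phosphatidylcholine synthesis, was at 416.9, 267.9 and 295.4 CPM in spt6-KK and at 498.7, 377.8 and 443.4 CPM in rpb1-FSP, with overlap through the first spt6-KK library. It was not called (-0.43 ± 0.14, edgeR adjusted p = 0.097) and passed with the replicate block (edgeR adjusted p = 0.0379). ACC1, acetyl-CoA carboxylase and a substrate of Bpl1, was at 2477, 2244 and 2107 against 2799, 2734 and 2819 CPM, without overlap (-0.29 ± 0.17, edgeR adjusted p = 0.319). Over 30 ergosterol genes, ARE2 among them, the median was -0.12, with ARE2 called. At an unadjusted p under 0.05, 8 were lower (26.7%, against 8.95% of all genes) and 1 higher (3.33%, against 13.6%). Without the third rpb1-FSP library the median was -0.06 with 2 lower (6.67%, against 5.96% of all genes). Without the second spt6-KK library it was -0.19 with 4 lower (13.3%, against 5.96%). ERG11, the sterol demethylase, was at 1671, 1950 and 2072 against 2101, 2350 and 2634 CPM (-0.32 ± 0.14, edgeR adjusted p = 0.183).

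Over 19 mitochondrially encoded genes the median log2 difference was 0.33, with 0 called by edgeR or DESeq2. At an unadjusted p under 0.05, 4 were higher (21.1%, against 13.6% of all genes). Without the third spt6-KK library the median was 0.22 with 2 higher (10.5%, against 7.71% of all genes). Without the second it was 0.34 with 2 higher (10.5%, against 7.07%). The members named here were chosen after their values were seen. COB, cytochrome b, was at 236.0, 261.3 and 273.0 CPM in spt6-KK and at 187.2, 183.6 and 194.7 CPM in rpb1-FSP, without overlap (0.45 ± 0.16, edgeR adjusted p = 0.115). OLI1, a subunit of the mitochondrial ATP synthase, was at 168.8, 187.4 and 145.2 against 102.9, 121.6 and 92.3 CPM (0.66 ± 0.26, edgeR adjusted p = 0.148, and 0.044 with the block). With the correction for GC content the list's median was 0.05. In bulk RNA, a smaller share of cells with a transcript and less of it in each cell cannot be told apart.

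**Figure D4:**
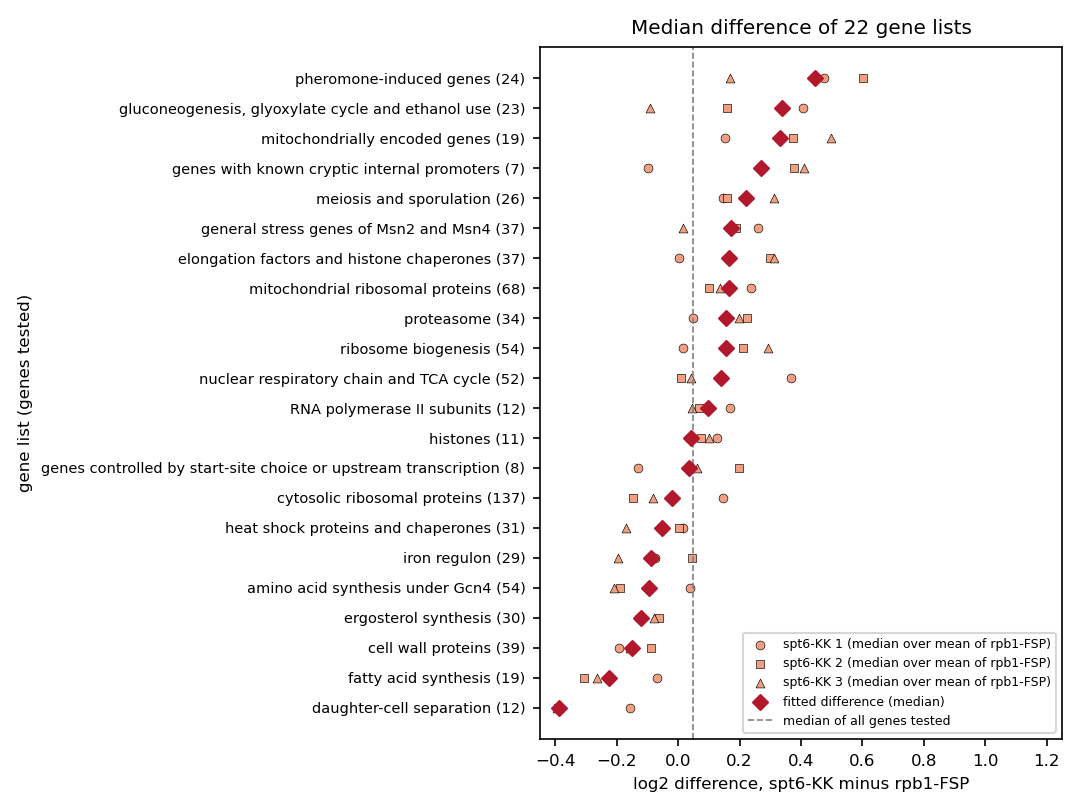
Median log2 difference between spt6-KK and rpb1-FSP in 22 gene lists; diamonds are the fitted differences, pale marks the 3 spt6-KK libraries over the rpb1-FSP mean, and the dashed line the median of all genes, 0.05. Pheromone-induced genes are at 0.44 and daughter-cell separation genes at -0.39.

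Across genes, the difference followed base composition and level. Over 5473 protein-coding genes, Spearman's rho with the difference was -0.31 for the gene's GC content, -0.35 for its mean level and -0.13 for its length, as a description in which genes are not independent and share libraries. In 5 equal groups by GC content, the median log2 difference was 0.18 in the 1095 genes of the lowest group (26.3% to 37.4%) and -0.10 in the 1095 genes of the highest (42.6% to 59.1%). The first spt6-KK library showed the slope less steeply, from 0.08 to -0.04, than the second (0.20 to -0.13) and the third (0.21 to -0.16). The rpb1-FSP libraries ran between -0.04 and 0.02 around their own mean. Against WT the medians of these groups were 0.17 and -0.09 in spt6-KK and 0.00 and 0.01 in rpb1-FSP.

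The called genes lay along the slope with GC content. No gene called lower fell in the 3 groups of lower GC content, with 4 in the next (40.5% to 42.6%) and 7 in the highest, and no gene called higher fell in the highest. Their median GC content was 38.2% for the 10 higher and 45.9% for the 11 lower genes, against 39.6% over all. DSK2, at 51.4%, and PUS2, at 50.9%, were the richest of the 21 in GC, and GIM4, at 31.8%, the poorest. In 5 equal groups by mean level, the median log2 difference ran from 0.21 in the lowest group to -0.11 in the highest. From lowest to highest, the level groups held 0, 3, 2, 2 and 3 genes called higher and 0, 1, 0, 6 and 4 called lower. GC content and level were not separated. Whether library preparation or transcription gave either slope was not tested.

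**Figure D5:**
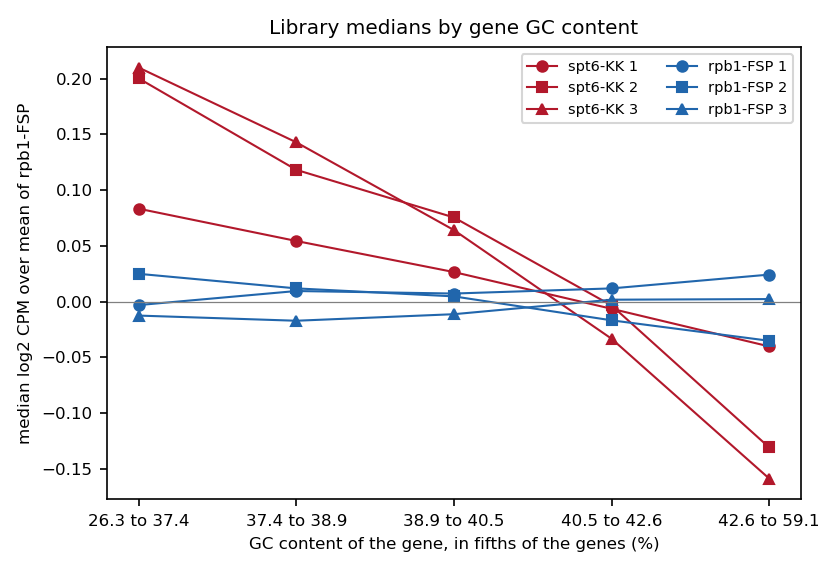
Median log2 CPM over the rpb1-FSP mean in 5 equal groups of protein-coding genes ordered by GC content, 1 line for each of the 6 libraries. The 3 spt6-KK lines (red) fall from between 0.08 and 0.21 to between -0.16 and -0.04, and the rpb1-FSP lines (blue) stay between -0.04 and 0.02.

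Counts over the middle 70% of each gene in the sense direction gave the same directions for all 21 genes. These counts come from the same libraries, so they are no independent support. At the same threshold 11 genes were called (0.194% of 5667), 3 higher (KAR4, GIM4 and GYP8, 0.0529%) and 8 lower (0.141%), and each was among the 21. The other 10 had edgeR adjusted p of up to 0.0717, the value of BPL1 (0.53). None of the 21 overlapped another annotated gene.

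The other strains offered a comparison with no shared library. In spt6-R minus rpb1-TPY, where 341 genes were called (6.07%), 14 of the 21 genes had the same sign as in spt6-KK minus rpb1-FSP (66.7%, against 42.0% of all genes). Of the 10 higher genes 3 had the same sign (30.0%). All 11 lower genes were below 0 there, by between -0.01 and -0.26, and none of them was called, while the median of all genes was -0.03. In spt6-R,KK minus rpb1-TPY,FSP, where 2 genes were called (0.0356%), 7 of the 21 had the same sign (33.3%, against 40.6%), 2 of the 10 higher and 5 of the 11 lower genes. BPL1 was called in both, with log2 differences of 0.66 and 0.73, and no other of the 21 was called in either. KAR4 stood at 0.45 in the first and -0.01 in the second, with 16.5, 22.1 and 26.1 CPM in spt6-R,KK and 24.7, 16.9 and 23.4 CPM in rpb1-TPY,FSP. The difference between the double-mutant and single-mutant comparisons passed for 1 gene, TRP1 (0.0178% of genes).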

How the data were processed

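RNA of 21 libraries (7 strains, 3 each) was sequenced as paired reads of 50 bases from stranded libraries, per the labels. The submitters' processing notes name cutadapt 1.16, STAR 2.6.1b, Subread featureCounts 1.6.3, DESeq2 1.22.2 and the builds sacCer3 and R64, without their roles. The deposited values are whole-number counts per gene, for full genes (5823 genes) and for the middle 70% of genes in sense (5894 genes), with 3 empty lines in each. Strand use in the full-gene counts is not given in the sources used here.

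Genes were filtered (filterByExpr) and scaled (TMM), and differences were tested with edgeR 4.0.16 quasi-likelihood F tests in R 4.3.3, in 1 model of strain over all 21 libraries (common coefficient of variation 0.154), with Benjamini-Hochberg adjustment over 5618 genes and a threshold of 0.05. CPM were computed from the full-gene counts and TMM factors. Other settings were DESeq2 1.42.0, other scaling, filters and libraries, a replicate block and a GC correction (a lowess trend of log2 CPM on GC content per library). Same-numbered libraries deviated together (correlations of 0.485, 0.365 and 0.204 over genes), so the numbers were taken to pair the libraries. Correlations of different-numbered libraries ran from -0.397 to 0.147, and the labels do not state a pairing. The third pair, at 0.204, was little above spt6-KK 3 with rpb1-FSP 2, at 0.147. The pairing was read from the same data to which the block was fitted, so fits with the block are no independent support. In counts simulated for this comparison over 5618 genes, 85.4% of 103 genes changed by 1 log2 unit were recovered. The 97 genes changed by 0.6 had a median fitted size of 0.576, but their recovery was not properly counted. There were 4 false calls, 2.9% of all calls. The simulated libraries varied independently, with no effect shared by replicate number and no library set apart, so these rates may not hold for the real counts.

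Named genes were both mutated genes, up to 12 rises and 12 falls called, with at least 20 counts and no overlap, up to 4 called members of each list, and members of the histone, elongation, polymerase, start-site, internal-promoter, mating-type and marker lists. Genes named outside that rule, FUS3, RPL41A and NOP1 among them, were chosen after their values were seen, except SCM3, named for its position, and the genes just past the threshold. The values of 1 gene called lower are not reported here. The members, lists and tests were chosen with earlier results of these data known. Coordinates and GC content come from the RefSeq R64 annotation, which matched 5494 of the genes tested.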

Additional observations from a re-analysis of the deposited data

Results flagged for a closer look

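TRP1, a gene of tryptophan synthesis, was picked out because spt6-R,KK minus rpb1-TPY,FSP and spt6-KK minus rpb1-FSP differed by 4.98 ± 0.28 on the log2 scale (edgeR adjusted p = 4.53e-10). It was at 23.9, 21.3 and 20.2 CPM in spt6-KK and at 20.2, 20.3 and 19.3 CPM in rpb1-FSP, a log2 difference of 0.13. It was at 30.6, 29.1 and 27.3 CPM in spt6-R,KK but at 1.27, 0.47 and 0.56 CPM in rpb1-TPY,FSP, and at 0.63 to 0.90 CPM in WT. Whether a strain carried a functional TRP1 is not stated in the labels.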

How the results depend on the processing

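All 21 called genes kept their direction under the 16 alternatives, which is no independent support. Their groups did not overlap, so leaving out 1 library could hardly reverse a direction, and every setting reused the same libraries. Of 272 list medians, 255 stayed within 1 SD of the spt6-KK library medians. That SD rests on 3 libraries, the first of which stood apart, so it is a loose measure. For the internal-promoter list it was 0.28, and a move from 0.27 to 0.07 without the second spt6-KK library counted as within it. The number of calls did not keep. Genes higher and lower in spt6-KK than in rpb1-FSP numbered 23 and 34 in a fit of the 6 libraries alone, 88 and 56 with the replicate block, 50 and 55 with GC correction and the block, 0 and 0 with GC correction alone (edgeR, 566 and 582 at an unadjusted p under 0.05), 99 and 118 with DESeq2, and 3 higher with mid-gene counts. With the 6 libraries and the block, chosen like the GC corrections after the data were seen, they were 861 and 849, and SPT6 (-0.39, edgeR adjusted p = 0.00154) and RPO21 (-0.27, edgeR adjusted p = 0.00587) passed; the block changed no other call of SPT6 or RPO21. Without 1 library at a time the counts ran from 0 to 304 higher and from 0 to 141 lower, the highest without spt6-KK 1. Leaving out a library gave 122 to 517 genes higher and 146 to 442 lower for spt6-KK minus WT, and 25 to 64 higher and 24 to 103 lower for rpb1-FSP minus WT. That last comparison gave 84 higher and 163 lower with DESeq2, and 88 and 124 with GC correction and the block, which gave 289 higher for spt6-R minus rpb1-TPY. Mid-gene counts gave 1 higher for spt6-R,KK minus rpb1-TPY,FSP. The cause of these shifts was not tested. In counts simulated for this comparison 88 of 103 differences of 1 on the log2 scale passed. How many of the 97 differences of 0.6 passed was not properly counted. The calls here had sizes of 0.41 to 0.95, so the simulation gives no rate for the smaller of them.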
